A study of Mus musculus with 2 samples.

Results

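Complement and acute-phase transcripts were examined in cultured mouse aortic vascular smooth muscle cells (VSMCs). The 9 genes, C1ra, C1s1, Serping1, C4b, Masp1, C3, Cfb, Lcn2 and Saa3, were taken by symbol from the 32285 genes counted, and all 9 were measured. The cells came from 4 cultures, here called groups. The first held VSMCs of young mice (12 weeks), the second held VSMCs of old mice (58 to 78 weeks), the third held young VSMCs given 100 nM angiotensin II (AngII) for 48 h, and the fourth held old VSMCs transfected with siRNA to Piezo1 (siPiezo1, 20 nM by the labels). All were primary cells on plastic, bought from 2 vendors with different media, and the sources do not say which lots entered the pool. Nor do they say whether the sequenced young and old cells received the non-targeting siRNA. An antibody with a DNA tag marked each group before pooling, and the pool gave 1 droplet library with its matching tag library. A group is 1 culture as far as the labels tell, so no test between groups was possible.

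The complement system is a cascade of blood proteases and their substrates that marks surfaces for removal. In the classical pathway, C1q carries the proteases C1r and C1s, which cleave C4 and C2. In the lectin pathway, MASP proteases take the place of C1r and C1s. Both lead to the cleavage of C3, and factor B, the product of Cfb, forms the C3-cleaving enzyme of the alternative pathway. Serping1 encodes C1 inhibitor, which blocks C1r, C1s and the MASP proteases. Acute-phase proteins are secreted in larger amounts during inflammation. Among them, Lcn2 encodes lipocalin 2, which binds bacterial iron carriers, and Saa3 encodes a serum amyloid A that is made outside the liver. Many of these genes are known targets of interleukin-6, interleukin-1 and interferon signalling.

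The start-site regions of the members in the RefSeq table (GRCm38.p6) are shown because several known inducers of these genes act through short motifs near the start. Entries were found for 5 of the 9 members (C3, C1s1, C1ra, Lcn2 and Saa3), and those for C4b, Cfb, Serping1 and Masp1 were not found. The 4 with a mean level of at least 10 CPM (defined with the values) are printed 5′ to 3′ along the gene. Each begins 250 bases before the annotated start, and 58 bases of Lcn2 and 24 of Saa3 next to the start are left out because GENCODE vM21 gives them as untranslated exon. Capitals mark matches, on either strand, to an NF-κB-like motif (GGGANNNNCC), a C/EBP-like motif (TTGCNNAA), a STAT-like motif (TTCNNNGAA) or an interferon response element-like motif (GAAANNGAAA). All 4 lie on the minus strand, C3 at chr17:57228137-57228386, C1s1 at chr6:124542360-124542609, Lcn2 at chr2:32387798-32387989 and Saa3 at chr7:46715701-46715926.
C3: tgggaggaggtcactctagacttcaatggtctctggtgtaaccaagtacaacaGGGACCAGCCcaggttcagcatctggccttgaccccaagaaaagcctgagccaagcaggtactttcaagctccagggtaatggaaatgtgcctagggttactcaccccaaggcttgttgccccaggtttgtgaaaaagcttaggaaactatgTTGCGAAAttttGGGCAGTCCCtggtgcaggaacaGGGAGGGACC
C1s1: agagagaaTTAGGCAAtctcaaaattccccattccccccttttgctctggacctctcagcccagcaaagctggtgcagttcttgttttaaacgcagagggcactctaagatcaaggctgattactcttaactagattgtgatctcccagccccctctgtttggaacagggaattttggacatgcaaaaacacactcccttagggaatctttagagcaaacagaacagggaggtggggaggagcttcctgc
Lcn2: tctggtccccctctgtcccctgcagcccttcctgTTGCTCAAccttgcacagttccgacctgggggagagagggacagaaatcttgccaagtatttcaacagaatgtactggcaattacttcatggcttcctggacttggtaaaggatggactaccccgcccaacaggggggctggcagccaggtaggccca
Saa3: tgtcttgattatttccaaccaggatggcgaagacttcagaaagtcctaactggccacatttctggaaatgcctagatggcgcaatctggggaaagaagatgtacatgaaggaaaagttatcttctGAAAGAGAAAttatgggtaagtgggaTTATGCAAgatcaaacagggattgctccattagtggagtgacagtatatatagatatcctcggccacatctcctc
C3 held 3 NF-κB-like matches, beginning at positions -197, -33 and -10 from the start (GGGACCAGCC, GGGCAGTCCC and GGGAGGGACC), and a C/EBP-like match (TTGCGAAA). One C/EBP-like match stood in each of C1s1 (TTAGGCAA), Lcn2 (TTGCTCAA) and Saa3 (TTATGCAA), and Saa3 also held an interferon response element-like match (GAAAGAGAAA). The Lcn2 window lies partly in an exon of a longer Lcn2 transcript. C1s1 had a 2nd entry, not printed, with an NF-κB-like match beginning at -35 from its own start (GGCCACTCCC). That match lies in the 38 bases next to that start that GENCODE vM21 gives as untranslated exon. Of all 32851 start-site regions, 17.6% held the NF-κB-like motif, 9.56% the C/EBP-like motif, 7.02% the STAT-like motif and 2.98% the interferon response element-like motif. Such matches describe letters in a window and are not binding sites.

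The pool gave 13045 cells, and those with a single tag were used. The young group (tag 1) had 3144 cells, the old group (tag 2) 497, the AngII group (tag 3) 1500 and the cells labelled siPiezo1 (tag 4) 1529, with 5577355 to 24120561 unique molecular identifiers (UMIs) per group. Tags were paired with groups by numbers drawn in the study's schematic, where their meaning as tags is left unsaid. The transcript of the siRNA target did not tell tag 4 from tag 2, since Piezo1 was at 86.9 CPM in tag 4 and 89.7 in tag 2, with intervals of 82.4 to 91.5 and 82.0 to 97.9. Tag counts were low in tags 2 to 4, with medians of 67 to 113 UMIs against 364 in tag 1. The groups also differed in sex-linked transcripts. Cells with only Y-linked UMIs made up 54.1% and 55.5% of tags 1 and 3 but 19.5% and 13.8% of tags 2 and 4. Cells with only Xist UMIs made up 4.90% and 6.27% of tags 1 and 3 and 63.0% and 66.8% of tags 2 and 4. Cells with both made up 7.95% to 10.6% of each tag. A list of 12 interferon response genes summed to 5163 CPM in tag 1, 348 in tag 2, 872 in tag 3 and 340 in tag 4. The 9 contractile VSMC genes, all detected, summed to 1316, 2133, 1489 and 1019 CPM in tags 1 to 4. The 8 macrophage markers summed to 16.7 to 26.7 CPM, the 7 endothelial markers to 27.2 to 45.3, and the 6 hepatocyte markers to at most 0.186 with 3 of them at 0 UMIs in all groups. The part of any of these in the member values was not tested.

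The level of a gene in a group is given as CPM, its UMIs summed over the group's cells and scaled to 1000000 gene UMIs of those cells, and is not divided by gene length because each molecule is counted once at its 3′ end. Intervals are exact 95% intervals of the counts and cover counting error only, not the spread between cells or between cultures. Barcodes with 1 to 100 UMIs hold RNA free in the suspension, and the level in them is given where it matters. From Rsad2, which was at 1.43 CPM in tag 2 against 34.8 in those barcodes, free RNA was put at no more than 4.12% of the UMIs in tag 2, a value from 8 UMIs with a counting interval of 1.71% to 8.55%. The same amount per droplet gave 4.39% to 6.02% in the others, with upper limits of 9.11% to 12.5%.

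**Figure D1:**
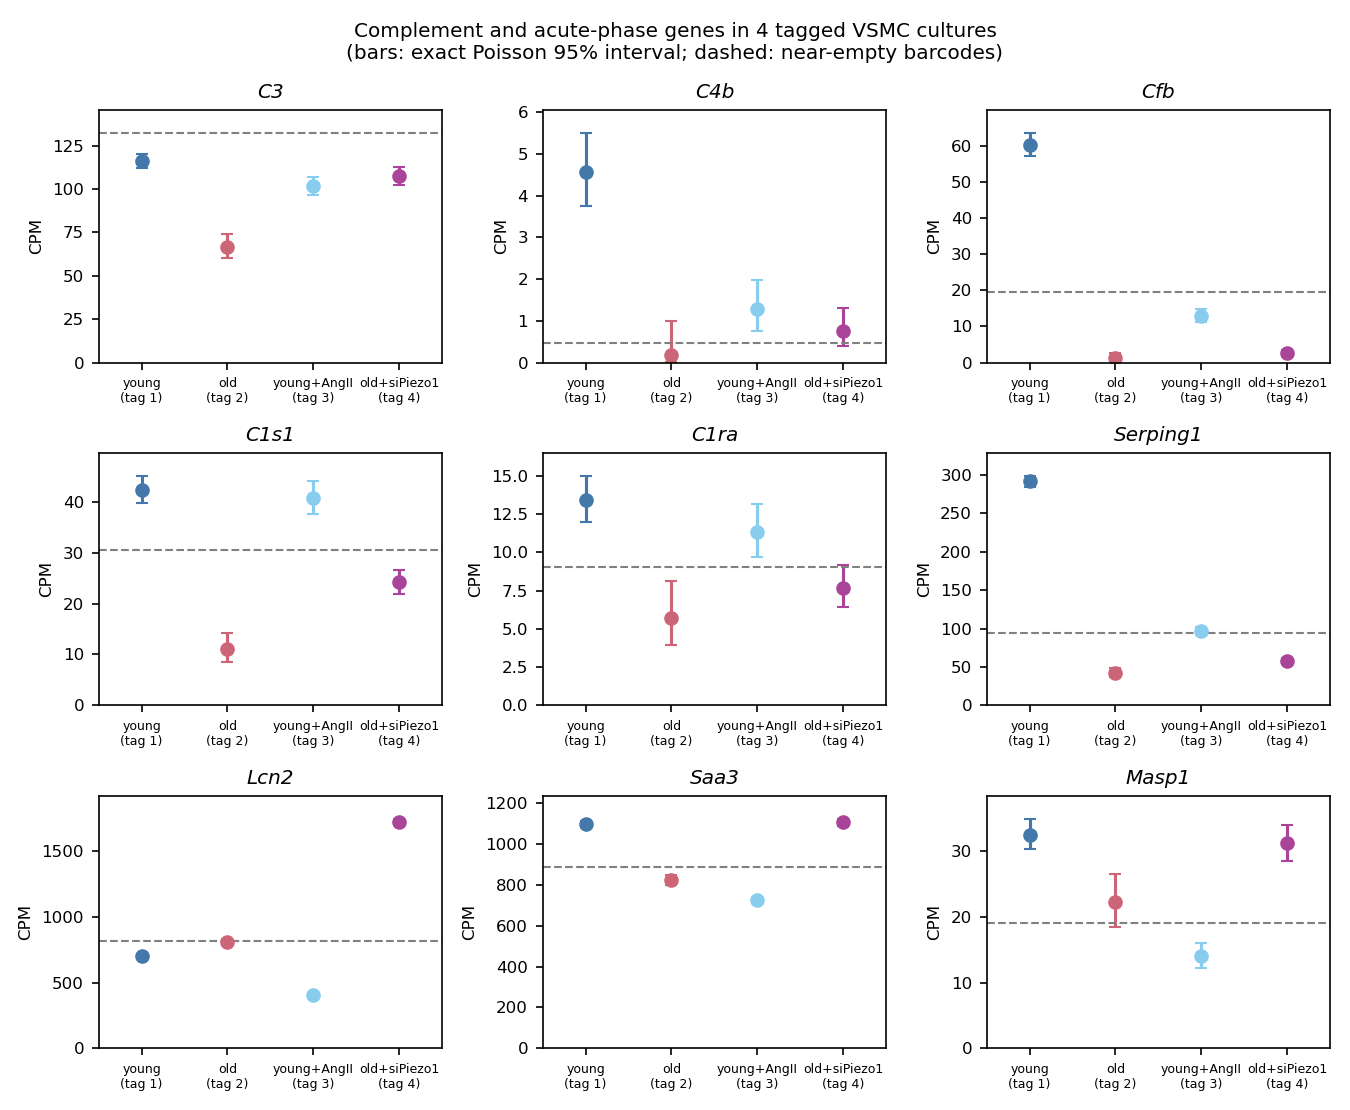
Level of each of the 9 genes in the 4 tagged cultures in CPM (linear axes from 0), with exact Poisson 95% intervals as bars and the level in near-empty barcodes as a dashed line. Serping1, Cfb and C4b stand highest in young cells, all 6 genes in the upper rows are lowest in old cells, Lcn2 is highest in the cells labelled siPiezo1, and Masp1, Saa3 and Lcn2 are lowest in the AngII group.

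Among the genes of the C1 complex, C1s1 encodes the protease C1s (ENSMUSG00000038521, chromosome 6, 124530345 to 124542359, minus strand, GENCODE vM21). Its level was 42.3 CPM (39.8 to 45.0) in young cells, 11.1 (8.52 to 14.3) in old cells, 40.7 (37.5 to 44.1) in AngII-treated young cells and 24.2 (21.8 to 26.7) in the cells labelled siPiezo1. Young and AngII-treated cells did not differ in C1s1 beyond counting error (ratio 1.04, 0.939 to 1.15), and every other step in the order was larger than counting error. C1ra, which encodes C1r (ENSMUSG00000055172, chromosome 6, 124512405 to 124523443, plus strand), was at 13.4, 5.74, 11.3 and 7.70 CPM in tags 1 to 4. It showed the same order of groups as C1s1, but from 32 to 324 UMIs, and neither young against AngII nor siPiezo1 against old differed beyond counting error. C1qa, C1qb and C1qc, which encode the C1q subunits, had 0 UMIs in 60737987, which allows a level of up to 0.0494 CPM.

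Serping1 (ENSMUSG00000023224, chromosome 2, 84765387 to 84775444, minus strand), the C1 inhibitor gene, was at 291 CPM (284 to 298) in young cells and 42.7 (37.4 to 48.5) in old cells. It was at 96.5 CPM (91.6 to 102) in AngII-treated cells and 57.8 (54.2 to 61.6) in the cells labelled siPiezo1. None of the 4 intervals of Serping1 overlapped. Cells with a Serping1 UMI made up 77.5%, 30.0%, 53.2% and 37.0% of tags 1 to 4. Free RNA alone would give one to 4.23% of cells, or 8.58% at its upper limit. Thinning to 5000 UMIs left out shallower cells, 747 of 3144 young and 21 of 497 old. In the thinned cells those with a Serping1 UMI made up 67.5%, 16.4%, 36.1% and 23.0% of tags 1 to 4, which kept the order of the groups.

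C4b (ENSMUSG00000073418, chromosome 17, 34728380 to 34743882, minus strand) encodes C4, which C1s and the MASP proteases cleave. It was close to the limit of detection, with 110 UMIs in young cells (4.56 CPM, 3.75 to 5.50), 1 in old cells (0.179, 0.00454 to 0.999), 19 in AngII-treated cells (1.27, 0.766 to 1.99) and 12 in the cells labelled siPiezo1 (0.745, 0.385 to 1.30). Young cells stood above the other groups for C4b. Among those, neither AngII against siPiezo1 nor siPiezo1 against old differed beyond counting error. Masp1 (ENSMUSG00000022887, chromosome 16, 23449417 to 23520815, minus strand), a protease gene of the lectin pathway, was at 32.5 CPM (30.3 to 34.9) in young cells, 22.2 (18.5 to 26.5) in old cells, 14.0 (12.2 to 16.0) in AngII-treated cells and 31.2 (28.5 to 34.0) in the cells labelled siPiezo1. Young cells and the cells labelled siPiezo1 did not differ in Masp1 beyond counting error (ratio 1.04, 0.931 to 1.17). Masp1 overlaps Rtp4 on the other strand, and Rtp4 was at 102, 8.25, 27.5 and 11.1 CPM in tags 1 to 4, an order unlike that of Masp1. The sources used do not give the strand setting of the counting.

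C3 (ENSMUSG00000024164, chromosome 17, 57203970 to 57228136, minus strand), the central component, was at 116 CPM (112 to 121) in young cells and 66.9 (60.3 to 74.0) in old cells. In AngII-treated cells it was at 102 CPM (96.5 to 107), and in the cells labelled siPiezo1 at 108 (102 to 113). The old culture was thus set apart by its low C3, while the other groups spanned a narrow range. The near-empty barcodes held C3 at 132 CPM, above all groups, and at the upper limits on free RNA it could give up to 16.9% of C3 in old cells and 11.2% to 14.2% in the others.

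Cfb (ENSMUSG00000090231, chromosome 17, 34856374 to 34862518, minus strand) encodes factor B and varied most between groups among the 7 members with a mean of at least 10 CPM. It was at 60.3 CPM (57.3 to 63.5) in young cells, 1.26 (0.505 to 2.59) in old cells, 12.9 (11.1 to 14.8) in AngII-treated cells and 2.67 (1.93 to 3.60) in the cells labelled siPiezo1. A Cfb UMI was found in 32.1%, 1.41%, 10.5% and 2.62% of the cells of tags 1 to 4, against 0.900% from free RNA alone, or 1.86% at its upper limit. The interval of the old cells (0.568% to 2.88%) held that background, so the 7 Cfb UMIs of old cells are not read as expression. C2, which encodes the homologous protease of the classical pathway and lies 86 bases from Cfb on the same strand, was at 21.8, 1.79, 4.09 and 1.24 CPM.

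Lcn2 (ENSMUSG00000026822, chromosome 2, 32384633 to 32388252, minus strand) was at 701 CPM (691 to 712) in young cells, 810 (786 to 834) in old cells, 406 (396 to 416) in AngII-treated cells and 1724 (1703 to 1744) in the cells labelled siPiezo1. It was the only member with a higher level in old than in young cells, by 1.15-fold (1.12 to 1.19). Saa3 (ENSMUSG00000040026, chromosome 7, 46711998 to 46715700, minus strand) was at 1100 CPM (1086 to 1113) in young cells, 823 (800 to 848) in old cells, 727 (713 to 740) in AngII-treated cells and 1107 (1091 to 1123) in the cells labelled siPiezo1. Young cells and the cells labelled siPiezo1 did not differ in Saa3 beyond counting error. The near-empty barcodes held Lcn2 at 813 CPM and Saa3 at 886, and free RNA alone would put a UMI of Lcn2 in 31.3% and of Saa3 in 33.6% of cells, or in 54.2% and 57.3% at its upper limit. The measured shares were above the former in every group, at 62.3% to 91.4% of cells for Lcn2 and 58.4% to 68.4% for Saa3. The interval of the Saa3 share in old cells (53.9% to 62.7%) held the upper limit, so presence of Saa3 in a given old cell was not resolved, although free RNA could give at most 9.21% of the Saa3 level there.

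Few UMIs were counted for the close copies of the members, and how reads shared between copies were counted was not examined. C4a, C1rb, C1s2, Saa1 and Saa2 were each at 0.268 CPM or less in every group, far below C1ra, C1s1 and Saa3 but not below the 0.179 CPM of C4b in old cells.

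Old cells were set against young cells, with 1 culture each, so age cannot be told apart from other differences between these cultures. Serping1 was 6.82-fold lower in old cells, C1s1 3.81-fold, C1ra 2.34-fold and C3 1.74-fold, while Saa3 (1.34-fold lower), Masp1 (1.46-fold lower) and Lcn2 lay within 1.5-fold. Cfb was 48.1-fold lower as counted, and C4b had a ratio of 0.0393 (0.000987 to 0.224) from its single UMI. Past 1.5-fold, 6 of the 9 members were lower in old cells and 0 were higher. Over the 8444 genes with a mean of at least 10 CPM, 9.89% were at least 1.5-fold lower and 8.41% at least 1.5-fold higher. Of the 7 members that meet that mean (all but C4b and C1ra), 4 were lower, and the median log2 ratio of the 7 was -0.80 against 0.03 over all these genes. Cfb, among the 4, met that mean only through its level in young cells (60.3 CPM). The interferon response list differed in the same direction, with all 12 genes lower in old cells. Of 7 contractile genes with a mean of at least 10 CPM, 5 were at least 1.5-fold higher in old cells (Acta2, Tagln, Myl9, Cnn1 and Smtn). Tpm2 (ratio 1.03) and Lmod1 (0.749) lay within 1.5-fold. The study reported lower ACTA2, MYH11 and TAGLN in old VSMCs by quantitative PCR, the opposite direction for Acta2 and Tagln. It also described its sequenced young cells by abundant ACTA2, MYL9 and TAGLN. Of 4 fibroblast genes with a mean of at least 10 CPM, 3 were lower (Pdgfra, Dpt and Ly6c1), while Dcn was slightly higher (1.13, 1.08 to 1.18). Cd34, a fibroblast gene below that mean, was also higher (2.45, 1.73 to 3.43). The part of these in the member values was not tested. Within the cells that held only Xist, the ratio of old to young was 0.300 for Serping1, 0.0472 for Cfb, 0.570 for C1s1 and 0.726 for C3. There it was 1.13 for Saa3 and 1.04 for Masp1. These were 154 young cells, with 29 UMIs of Cfb and 24 of C1s1, and 313 old cells, with 3 UMIs of Cfb. The 154 are 4.90% of young cells, fewer than the 7.95% with both Xist and Y-linked UMIs. They are not shown to be a separate class of cells. Within the cells that held only Y-linked transcripts, Lcn2 was lower in old cells, with a ratio of 0.730, and Saa3 was at 0.423.

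AngII-treated young cells were likewise set against untreated young cells. Cfb was 4.69-fold lower with AngII, C4b 3.58-fold, Serping1 3.02-fold, Masp1 2.32-fold, Lcn2 1.73-fold and Saa3 1.51-fold. C1s1 (ratio 0.962, 0.869 to 1.06) and C1ra (0.843, 0.695 to 1.02) did not differ beyond counting error, and C3 was 1.14-fold lower. In all, 6 of the 9 members were at least 1.5-fold lower and 0 were higher, where 7.65% of all counted genes were lower and 7.00% higher. Saa3 passed only narrowly, and its interval (ratio 0.661, 0.646 to 0.676) held values within 1.5-fold. Of the 7 members with a mean of at least 10 CPM, 5 were lower, at a median log2 ratio of -0.79 against 0.04 over all genes. Cfb, among the 5, met that mean only through its level in untreated young cells (60.3 CPM). The interferon response genes again all stood lower in treated cells. This comparison and that of old with young cells share the untreated young cells.

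Last, the cells labelled siPiezo1 were set against old cells, which also enter the comparison with young cells. Lcn2 was 2.13-fold higher (2.06 to 2.20) in the labelled cells, C1s1 2.17-fold (1.66 to 2.89) and C3 1.61-fold (1.44 to 1.80). Masp1 (1.40-fold, 1.15 to 1.72), Serping1 (1.36-fold, 1.17 to 1.57) and Saa3 (1.34-fold, 1.30 to 1.39) were higher by less than 1.5-fold. The ratios of Cfb (2.13, 0.949 to 5.60), C1ra (1.34, 0.904 to 2.05) and C4b (4.16, 0.615 to 178) had intervals that held 1. All 9 ratios were above 1, and 5 of the 9 were past 1.5-fold (C3, C4b, Cfb, C1s1 and Lcn2), where 1.69% of all counted genes were that much higher and 1.02% that much lower. Of these 5, Cfb and C4b were below 3 CPM in both groups, and the old Cfb value was not read as expression. Of the 7 members with a mean of at least 10 CPM, 4 were past 1.5-fold (C3, Cfb, C1s1 and Lcn2). The median log2 ratio of the 7 was 0.69 against 0.02 over all counted genes. Cfb met that mean only through young cells. Of the 12 interferon response genes, 5 were at least 1.5-fold higher in the labelled cells (Ifit1, Ifit3b, Oasl2, Rsad2 and Cxcl10) and 1 was lower (Oasl1), at a median log2 ratio of 0.39. Apart from Ifit1, these genes were at 1.43 (Rsad2) to 5.02 CPM (Oasl2) in old cells and met the mean through young cells. The Rsad2 count of old cells is also the one that set the limit on free RNA. The summed list was not higher, at 348 CPM in old and 340 in labelled cells. The contractile genes Acta2, Tagln, Myl9, Cnn1 and Lmod1 were lower in the labelled cells. Among cells with only Y-linked transcripts, 97 in tag 2 and 211 in tag 4, Lcn2 was 3.42-fold and Saa3 3.02-fold higher, while Masp1 was lower with a ratio of 0.476. In the same cells C1s1 was at a ratio of 1.25, which no longer passed 1.5-fold, Serping1 at 1.74, which did, and C1ra at 0.872.

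**Figure D2:**
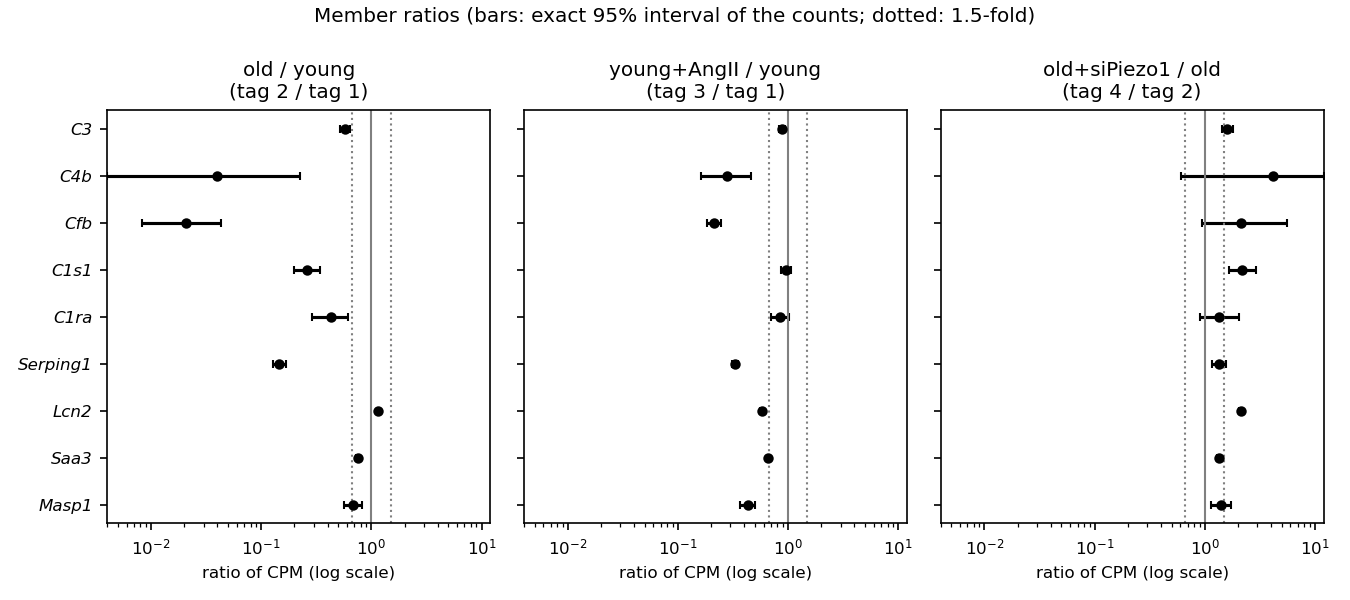
Ratio of CPM for each of the 9 genes in 3 comparisons on a log axis, with exact 95% intervals of the counts as bars and dotted lines at 1.5-fold in both directions. The interval of C4b runs past the axis where old cells enter; 8 of 9 ratios of old to young lie below 1, all 9 of AngII to untreated lie below 1, and all 9 of siPiezo1 to old lie above 1.

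The other acute-phase genes were counted over a list of 35, of which 12 had a mean of at least 10 CPM. In old against young cells 7 were at least 1.5-fold lower and 1 (Slpi) higher, against 9.89% and 8.41% of all counted genes. With AngII 8 were lower and 1 (Slpi) higher, against 7.65% and 7.00%. Hp was above 10 CPM only in young cells, and Lbp was at 3.05 CPM in old cells. Both met the mean through groups where they were high. In the cells labelled siPiezo1, 8 of the 12 were higher than in old cells and 0 were lower, against 1.69% and 1.02% of all counted genes. Hp and Lbp, 2 of the 8, were below 10 CPM in both groups and met the mean through young or AngII-treated cells. Among the 12, Ptx3, the long pentraxin that binds C1q, was at 314, 25.8, 187 and 35.8 CPM in tags 1 to 4. Serpina3n, a secreted serine protease inhibitor, was at 259, 31.7, 107 and 69.7 CPM. Cp, which encodes the copper carrier ceruloplasmin, was at 342, 275, 185 and 591 CPM, so its order of groups, apart from young and old, was that of Lcn2. Hp, which encodes haptoglobin, was at 37.6, 3.77, 9.17 and 7.45 CPM. The classic liver genes Fga, Fgb, Fgg and Apcs had 0 UMIs in the tagged cells.

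The other complement genes were counted in the same way. Of 48 listed, 47 were in the table and 7 had a mean of at least 10 CPM. In old against young cells 3 of the 7 were higher (Clu, Cd59a and Colec12) and 1 was lower (C4bp). C4bp was at 3.05 CPM in old cells and met the mean through young (15.3) and AngII-treated cells (19.6). With AngII 1 was higher (Cd59a) and 1 lower (Clu), and between siPiezo1 and old cells 0 were past 1.5-fold in either direction. The shares over all counted genes are those given for the acute-phase list. Clu, which encodes clusterin, an inhibitor of the terminal complex, was at 39.7 CPM in young cells, 211 in old cells, 25.4 in AngII-treated cells and 197 in the cells labelled siPiezo1. Cd55, which dissociates C3-cleaving enzymes on the cell surface, was at 22.4, 29.1, 29.5 and 24.1 CPM in tags 1 to 4. Of the terminal components, C6, C8a, C8b and C9 had 0 UMIs in the tagged cells, C8g had 37, Hc (which encodes C5) had 10 and C7 had 5.

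**Figure D3:**
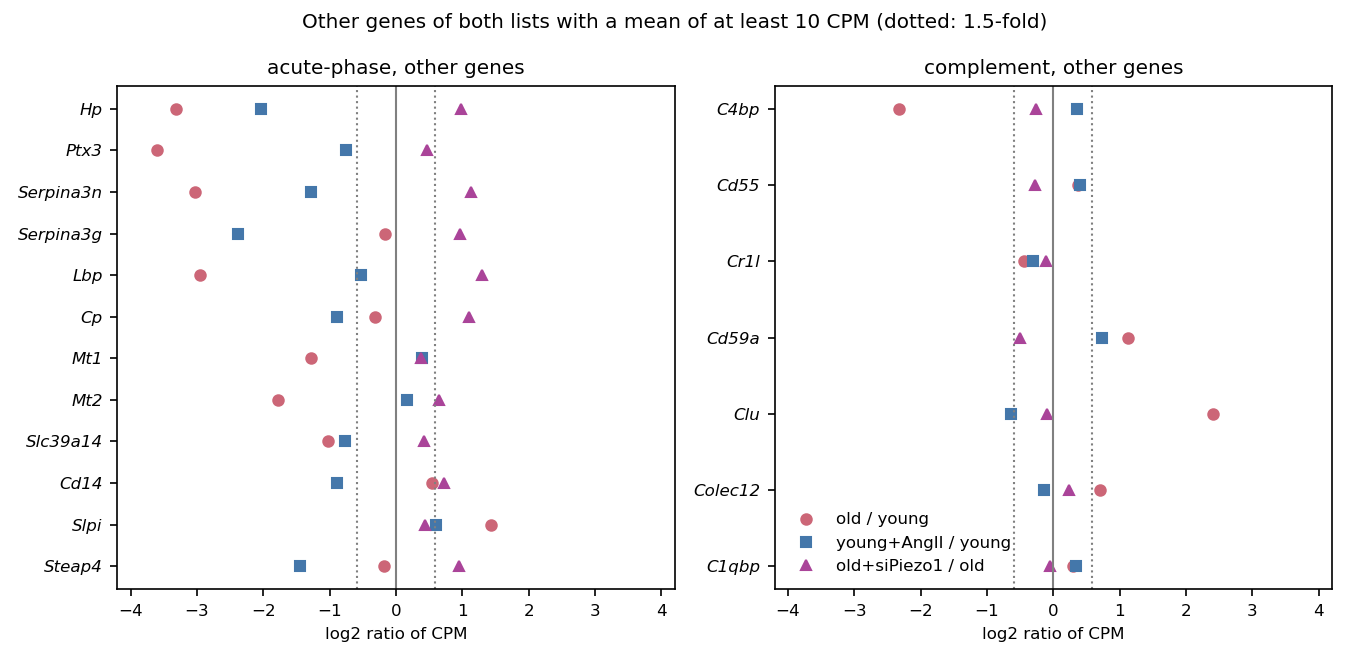
The log2 ratio of CPM in the 3 comparisons for the 12 other acute-phase genes (left) and the 7 other complement genes (right) with a mean of at least 10 CPM, with dotted lines at 1.5-fold. The siPiezo1 to old ratios of all 12 acute-phase genes lie above 0, and those of the 7 complement genes lie within 1.5-fold of it.

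Genes of the signals that are known to induce acute-phase genes were also listed, and 20 of 25 had a mean of at least 10 CPM. Between old and young cells Lif was higher and Il6st, Osmr, Socs3 and Bcl3 were at least 1.5-fold lower. With AngII 1 was higher and 6 were lower, among them Cebpd, a transcription factor of the acute phase, at 450 CPM in untreated and 244 in treated cells. In the cells labelled siPiezo1 only Socs3, the feedback inhibitor of the interleukin-6 receptor family, passed 1.5-fold, at 15.8 CPM against 9.32 in old cells. Of the 13 receptors and partners of the members 4 had a mean of at least 10 CPM, and Tlr4 with AngII was the only 1 past 1.5-fold. For both lists the shares over all counted genes are those given for the acute-phase list.

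The members were spread unevenly over the cells of a culture. In cells thinned to 5000 UMIs, the tenth of cells with most Saa3 held 59.1% to 72.2% of its UMIs, and the tenth with most Lcn2 held 39.7% to 59.6%. The same share was 47.1% to 55.3% for C3 and 33.6% to 70.3% for Serping1, and it depends on the level of the gene. The higher Lcn2 of the cells labelled siPiezo1 was spread over most cells. Their median was 5 Lcn2 UMIs, against 1 in each of the other groups, and 85.4% of them had at least 1, against 63.9% of old cells. At least 10 Lcn2 UMIs were found in 33.4% of the cells labelled siPiezo1, 13.7% of old cells, 8.55% of young cells and 4.84% of AngII-treated cells. For Saa3 the shares with at least 10 UMIs were closer together, at 17.5%, 13.0%, 15.9% and 11.6% in the same order.

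**Figure D4:**
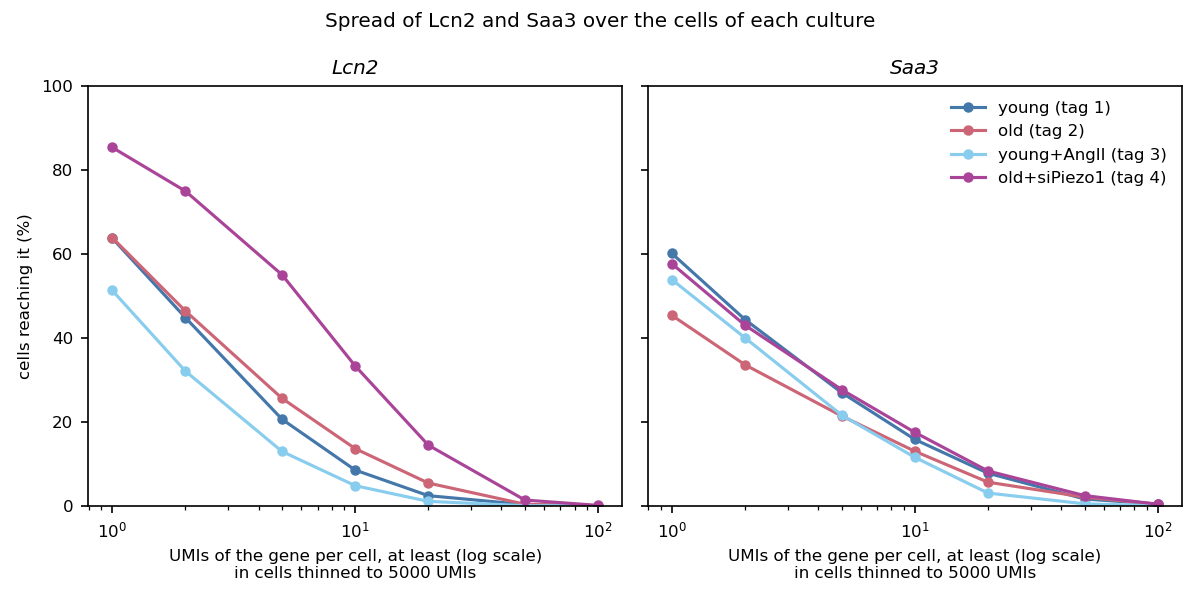
Percentage of cells (thinned to 5000 UMIs) that reached a given number of UMIs of Lcn2 (left) or Saa3 (right), on a log axis of UMIs, for the 4 groups. The Lcn2 curve of the cells labelled siPiezo1 lies above the others up to 20 UMIs (14.5% against 5.46% of old cells). The Saa3 curves run from 45.4% (old) to 60.1% (young) at 1 UMI. At 20 UMIs they run from 3.08% (AngII) to 8.34% (labelled siPiezo1).

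The same cells tended to be high in both acute-phase genes. Old cells with 10 or more Saa3 UMIs had Lcn2 at 1997 CPM (1843 to 2160), and old cells with none had it at 588 (547 to 631). The levels in the same order were 1188 and 482 CPM in young cells, 671 and 276 in AngII-treated cells, and 3133 and 1348 in the cells labelled siPiezo1. Thus the cells labelled siPiezo1 without a Saa3 UMI still had more Lcn2 than old cells without one. C3 followed Saa3 more weakly than Lcn2 did, at 176 CPM in the Saa3-high cells labelled siPiezo1 and 88.2 in those without Saa3. Serping1 was at 127 and 33.7 CPM in the same cells. In the same order it was at 356 and 259 in young, 67.7 and 29.2 in old and 138 and 90.6 in AngII-treated cells. C1s1 was at 65.8 and 28.7 CPM in young, 16.1 and 6.92 in old and 43.0 and 34.0 in AngII-treated cells. It was at 38.7 and 22.0 in the cells labelled siPiezo1. Masp1 went the other way in the cells labelled siPiezo1, at 11.3 CPM (6.17 to 18.9) in Saa3-high cells and 47.1 (39.6 to 55.5) in those without. Old cells gave 9.68 CPM (3 UMIs, upper limit 28.3) and 32.3 (23.3 to 43.7) in the same order, young cells 35.8 and 34.3, and AngII-treated cells 12.7 and 14.3. Young cells with a UMI of Ccn5, a matricellular gene, had Masp1 at 41.2 CPM (34.1 to 49.3) and those without at 31.1 (27.6 to 35.0). In AngII-treated cells the values were 57.8 (30.8 to 98.8, 45 cells) and 11.7 (9.21 to 14.6).

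Pearson correlations over the thinned cells of each tag (476 to 2397 cells, on log2 of UMIs plus 1) were weak to moderate and are given as description, since the cells share a library and its free RNA. Between Lcn2 and Saa3 r was 0.286, 0.290, 0.225 and 0.284 in tags 1 to 4. Among 3289 genes, those most like Lcn2 by mean r were 1110008P14Rik (0.297), Saa3 (0.271) and Cp (0.246), and 1110008P14Rik lies 2695 bases from Lcn2 on the same strand. Those most like Saa3 were Dcn (0.275), Lcn2 (0.271) and Ccl2 (0.259). For C3 they were Lcn2, Cp and Saa3 (0.172 to 0.134), and for Serping1 they were Ifitm3, Serpina3n and Cp (0.186 to 0.170).

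The members were then set against cell states within each culture, by comparing the upper and the lower tercile of cells by the summed UMIs of a list. Ties made these sets unequal in size. For the fibroblast list the lower set held 1178 and the upper 641 of the 2397 thinned young cells. Contractile genes ran against Lcn2 in all groups. The ratio of Lcn2 in cells high to cells low in contractile genes was 0.570, 0.468, 0.675 and 0.623 in tags 1 to 4, and no interval held 1. For Saa3 it was 0.779, 0.495 and 0.653 in tags 1, 2 and 4 but 1.29 (1.21 to 1.38) in AngII-treated cells. The variance of Saa3 UMIs over the thinned AngII-treated cells was 17.2 times their mean. Whether the 1.29 differed from 1 beyond that spread was not tested. C3 was lower in contractile-high cells in all groups, with ratios of 0.476 to 0.825. The ratio of 0.825, in AngII-treated cells, had a counting interval of 0.69 to 0.99. Whether it differed from 1 beyond the spread between cells was not tested. In the upper tercile of the fibroblast list Saa3 was 2.36-fold to 3.32-fold and Lcn2 1.52-fold to 1.79-fold higher. All 8 genes of that list were detected, and the list, to which Dcn belongs, summed to 676, 560, 761 and 774 CPM in tags 1 to 4. Dcn alone gave 448 CPM of it in young and 506 in old cells, so the split there was largely by Dcn.

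Cell division and the interferon response marked other differences. In dividing-high against dividing-low cells the ratio of Saa3 was 0.636 in young, 0.314 in old and 0.605 in siPiezo1-labelled cells, and 1.13 with AngII. Whether that 1.13 differed from 1 beyond the spread between cells was not tested. Lcn2 did not differ with division beyond counting error in young (1.05) and AngII-treated cells (1.02) and was lower in dividing old (0.645) and siPiezo1-labelled cells (0.762). Young cells in the upper tercile of the interferon response list had Cfb 2.38-fold, Saa3 2.05-fold, C1s1 1.78-fold and Serping1 1.75-fold higher than those in the lower tercile. Lcn2 did not differ there (1.02, 0.965 to 1.08). Serping1 was higher in the interferon-high tercile of every group, by 1.46-fold or more, with no interval that held 1. In tags 2 and 4 the lower tercile had 0 UMIs of the list and the upper more than 2. Bst2 alone gave 241 of the 348 CPM of the list in old cells, so the split there was largely by Bst2. In old cells it rests on 27 Serping1 UMIs in the lower and 32 in the upper tercile.

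**Figure D5:**
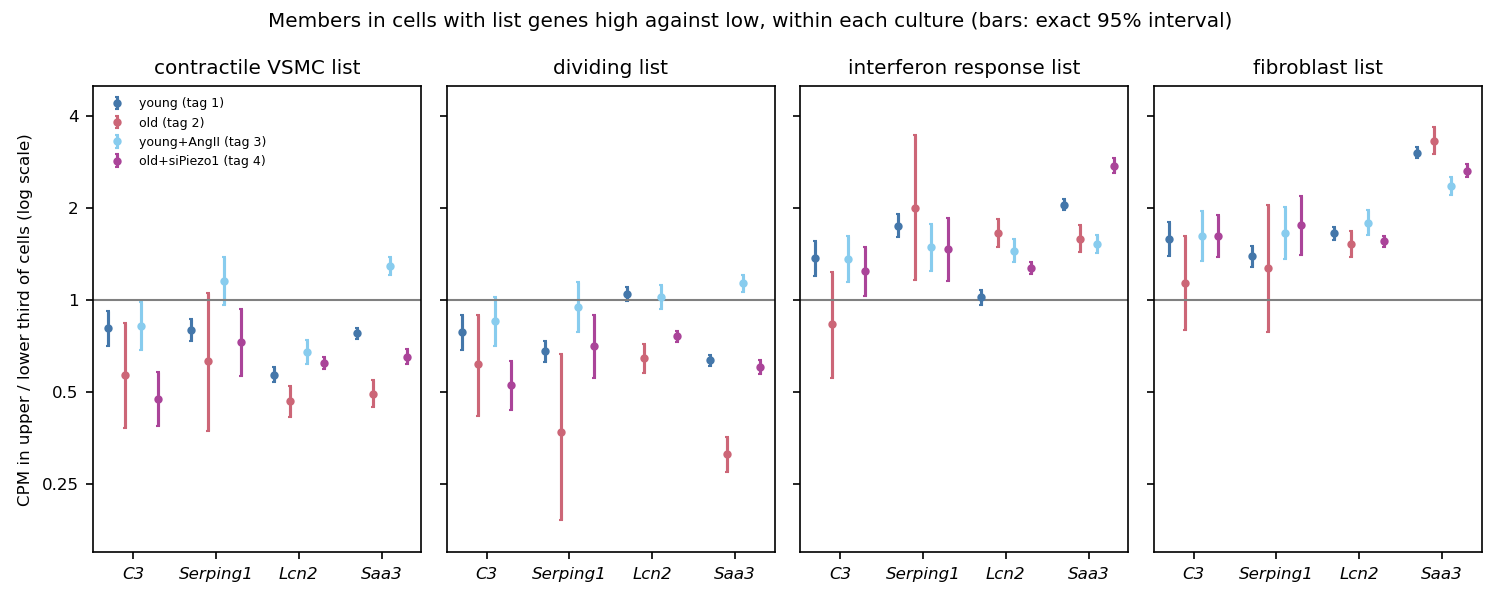
Ratio of CPM of C3, Serping1, Lcn2 and Saa3 in cells of the upper tercile to cells of the lower tercile of 4 gene lists, within each of the 4 groups, on a log axis with exact 95% intervals of the counts. Lcn2 lies below 1 for the contractile list in all groups, and Saa3 lies above 2 for the fibroblast list in all groups.

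Sex-linked transcripts divided some members within a culture. In young cells those with only Y-linked UMIs had Cfb at 64.3 CPM and those with only Xist at 18.7, a ratio of 3.43 (2.37 to 5.15). Serping1 was at 308 and 136 CPM and C1s1 at 45.4 and 15.5 in the same cells. In old cells Lcn2 was lower in the Y-linked cells, at 489 against 915 CPM, and so was Saa3, at 468 against 878. In the other groups Saa3 was higher in the Y-linked cells, by 1.41-fold to 1.44-fold. Masp1 in the cells labelled siPiezo1 was at 9.43 CPM in the Y-linked and 37.1 in the Xist cells. The young cells with only Xist are the 154 described above, which are not shown to be a separate class. The sources do not say whether cells with Y-linked and with Xist transcripts come from different animals or lots.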

How the data were processed

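Cultured mouse aortic VSMCs of 4 groups were hashed, pooled and run as 1 droplet library (10x Genomics 3′). The authors deposited raw UMI counts per gene and hashtag for 2472397 barcodes, made with Cell Ranger 4 per the file headers and with no filter on cells; the labels also name Seurat. The genome build and strand setting were not given in the sources used here. Gene positions are those of the same Ensembl identifiers in GENCODE vM21. A cell had at least 200 genes and at least 2218 UMIs, 10% of the 99th percentile of the deepest barcodes. A tag was assigned where only 1 hashtag exceeded its cutoff (36, 52, 61 and 41 UMIs for tags 1 to 4), so that 5307 cells without a tag and 1068 with more than 1 were left out. Scrublet (scanpy 1.11.5) called 23.4% of cells doublets, and these were kept except in an alternative. Thinning drew 5000 UMIs per cell and left out cells with fewer, 747 in tag 1, 21 in tag 2, 136 in tag 3 and 114 in tag 4. The spread over cells, the correlations and the splits by Saa3, Ccn5 or a gene list used the thinned cells. CPM have exact Poisson intervals, ratios the exact binomial interval of both counts, and shares exact Clopper-Pearson intervals (SciPy 1.17.1); the ratio was tested on simulated data. A fold of 1.5 was counted, with no test, over genes with a mean of at least 10 CPM. Named genes were the members, their close copies, list genes with values of note, neighbours, and for members with a mean of at least 50 CPM the 3 genes of highest mean r. Members and lists were chosen with earlier results of these data known. List genes under 50 CPM, Ccn5 and the split by Saa3 were named after their values were seen. Some genes of the lists are not reported here and were left out of the counts over lists.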

Additional observations from a re-analysis of the deposited data

Results flagged for a closer look

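In the 1068 cells with more than 1 tag, which no comparison uses, Lcn2 was at 883 CPM (868 to 900), above the young cells (701) and the old cells (810). It drew notice as a signal in cells outside the comparisons that exceeded both untreated groups. Lcn2 in these cells lay below the 1724 CPM of the cells labelled siPiezo1, and how many of them hold such a cell was not tested. No other member passed both untreated groups in these cells or in the 5307 cells without a tag.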

How the results depend on the processing

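The counts of members past 1.5-fold were recomputed with stricter tag rules, other cell filters, doublet removal, thinning, free RNA subtracted, each cell weighted equally, mitochondrial, ribosomal and Malat1 UMIs left out, a fold of 2 and cells split by sex-linked transcripts, the cells with only Xist being an alternative chosen after seeing the data. Each count stayed within 1.5 times the reported one, except in 2 cases. In cells with only Xist, 1 member (C1s1, ratio 2.17 from 36 UMIs with AngII and 24 without) was at least 1.5-fold higher with AngII. In cells with only Y-linked transcripts, 2 members (C4b and Masp1) were at least 1.5-fold lower in the cells labelled siPiezo1 than in old cells, and the ratio of C4b there was 0 from 1 UMI against 0. The cause was not tested. Among single ratios, Lcn2 in old against young cells ran from 0.730 (only Y-linked) to 1.35 (thinned), and Saa3 from 0.423 to 1.13 (only Xist). The ratio of C1s1 in siPiezo1 against old cells ran from 1.25 (only Y-linked) to 3.36 (tag at least 3 times the next). The ratio of Saa3 with AngII (0.661) lay within 1.5-fold with the tag at least 3 times the next (0.715) and in cells of at least 5000 UMIs (0.707). It also did so in cells with only Y-linked transcripts (0.67) or only Xist (0.678), and stayed past 1.5-fold in the other alternatives. The ratio of Cfb in old against young cells stayed at or below 0.0472. Depth limits C4b and, in tags 2 and 4, Cfb. No paired analysis was possible because each group is 1 culture and the result comes from no test.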
